A study of Bos taurus with 16 samples.

Results

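Transcripts of the Polycomb complexes were followed from the mature bovine oocyte to the blastocyst. The set was 10 genes that encode components of the Polycomb repressive complexes, PRC2 and PRC1, and each was taken as the locus that carries its name in the deposited table of 27393 loci. Of the 10 genes, 9 were found, each at 1 locus. They were the PRC2 genes EZH2, EZH1, EED, SUZ12 and JARID2 and the PRC1 genes RNF2, BMI1, PCGF6 and PHC1. RING1 was not found by name and has no value here.

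Polycomb complexes keep genes silent through marks on histone tails. PRC2 methylates lysine residues of histone H3 through EZH2 or EZH1, which work only when bound to EED and SUZ12, and JARID2 helps to bring the complex to chromatin. PRC1 attaches ubiquitin to histone H2A through RING1 or RNF2, each paired with a PCGF protein such as BMI1 or PCGF6. Canonical forms of PRC1 also hold a PHC protein and a CBX protein that reads the PRC2 mark, whereas variant forms hold RYBP or YAF2 in their place. In mammalian preimplantation development, part of this machinery is stored in the egg as mRNA and part is transcribed by the embryo itself once its genome becomes active.

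RNA-Seq was performed on single in vivo oocytes and embryos of Bos taurus, 2 per stage and 16 in all. The stages were MII oocytes (MII), 2-cell (2C), 4-cell (4C), 8-cell (8C) and 16-cell (16C) embryos, early morulae (EM), compact morulae (CM) and blastocysts (BL). No treatment, breed or parent animal is named in the labels, so the p-values below measure the spread between these single oocytes and embryos. RNA of each was amplified in 2 rounds before sequencing, and stages MII to 4C (6 samples) are called before, and stages 8C to BL (10 samples) after, embryonic genome activation (EGA).

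The deposited values are read counts divided by a size factor per sample, and the reads behind them could be recovered, between 607672 and 3379426 per sample. Levels are given in CPM (reads of a gene in 1e6 reads of its sample) and as mean ± SD (n = 2). A level of 3 reads, taken as the limit of detection, corresponds to between 0.888 and 4.94 CPM, counting error only. CPM is a share of the reads, so fewer transcripts of a gene and more RNA from other genes cannot be told apart. Levels were not divided by transcript length and are compared between stages, not between genes. The deposited values scale the libraries differently (1 CPM equals 1.19 to 2.43 deposited units before EGA, and 0.71 and 0.95 in the early morulae), and where an order of samples depends on that choice both are given.

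Marker genes followed the labelled stages, with exceptions. The oocyte list (6 of 7 loci with reads) summed to between 2785 and 10284 CPM before EGA and to between 4.91 and 1443 CPM after it. The upper value belongs to 8C replicate 2, which held 1347 CPM of the oocyte linker histone H1FOO against 21.0 CPM in 8C replicate 1. Of the blastocyst markers, KRT18 reached 367 and 388 CPM in the BL samples, but differed between the 16C samples (11.6 and 114 CPM). The defining factor CDX2 had 1 read over all samples, and IFNT2 was highest in 16C. TFAP2C was higher in EM (266 and 281 CPM) than in BL (198 and 141 CPM), though in deposited values these stages overlapped. Of the inner cell mass markers, POU5F1 lay at 122 to 295 CPM before and 2498 to 5926 CPM after EGA, highest in 8C. NANOG had no read before EGA and was highest in BL, whereas SOX2 reached at most 12.3 CPM and was lowest in BL (stage orders in deposited values). Of 12 cumulus and granulosa markers, 11 had reads, mostly STAR and HAS2, and their sum was 564 to 1999 CPM before and 384 to 884 CPM after EGA. INHA had no reads, and FSHR lay at 1.48 to 9.20 CPM before and at 0 in every sample after EGA. Of the 3 cumulus markers tested at EGA, STAR and HAS2 were lower and LHCGR was higher (limma, log2 change 1.80, adjusted p = 0.022). The 3 leukocyte markers summed to at most 19.8 CPM. The part of these differences in the results below was not tested.

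EZH2, the main methyltransferase of PRC2 in dividing cells, was close to the limit of detection in the oocyte and highest in the early morula. It stood at 1.33 and 4.38 CPM in the MII oocytes (3 and 10 reads), at 5.32 and 34.3 CPM in 2C and at 32.6 and 27.7 CPM in 4C embryos. After EGA it measured 23.5 and 58.7 CPM in 8C, 34.0 and 39.5 CPM in 16C, 98.1 and 78.6 CPM in EM, 47.2 and 41.4 CPM in CM and 31.4 and 30.8 CPM in BL samples. In CPM both early morulae exceeded every other sample, while the 4C embryos already lay within the range of the later stages. In stage means the level went from 2.86 ± 2.16 CPM (MII) to 88.3 ± 13.7 CPM (EM), and 3 of the 7 neighbouring pairs in the order of means had samples that did not overlap (MII below 2C, BL below 16C, and CM below EM). On the deposited scale the early morula still had the highest mean, 74.1, but EM replicate 2 (55.5) lay below 8C replicate 2 (70.0), and 2 neighbouring pairs separated (BL below 4C, and CM below EM).

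EZH1, the second methyltransferase, which is best known from resting cells, was barely measured. It had 34 reads in all, in 5 of the 16 samples, and only 3 samples reached the limit of 3 reads. These were 8C replicate 1 at 14.8 CPM, 16C replicate 1 at 10.04 CPM and BL replicate 1 at 5.89 CPM. The second embryo of each of these stages had no read, so the SD within a stage was larger than its mean. All 5 samples with reads carry the number 1, although samples with the same number are different embryos. Both MII oocytes, both early morulae and both compact morulae were at 0 reads.

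EED, the subunit that binds methylated H3 and stimulates the enzyme, had earlier and later samples that did not overlap, in CPM as in deposited values. Before it, EED had 3.10 and 2.19 CPM in MII, 12.0 and 8.29 CPM in 2C and 5.56 and 4.92 CPM in 4C samples. From the 8-cell stage on the values were 13.6 and 29.8 CPM (8C), 19.3 and 37.8 CPM (16C), 29.4 and 67.6 CPM (EM), 69.7 and 30.0 CPM (CM) and 36.3 and 57.2 CPM (BL). The 10 later samples therefore all lay above all 6 earlier ones, though the smallest gap, between a 2C and an 8C embryo, was narrow. Stage means went from 2.65 ± 0.64 CPM (MII) to 49.8 ± 28.1 CPM (CM), and in the order of means no stage above 8C separated from its neighbour.

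SUZ12, which holds the PRC2 core together, followed a similar course. It was at 4.43 and 5.26 CPM in the oocytes, at 27.3 and 28.1 CPM in 2C and at 15.3 and 27.04 CPM in 4C embryos. Later values were 59.4 and 18.3 CPM in 8C, 117 and 137 CPM in 16C, 89.1 and 193 CPM in EM, 92.3 and 46.4 CPM in CM and 69.7 and 216 CPM in BL samples. Of the 10 later samples, 9 exceeded all earlier ones, and the exception was 8C replicate 2, the embryo that still held H1FOO. The blastocysts had the highest mean, 143 ± 103 CPM, but they differed from each other by more than they did from the early morulae.

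JARID2, the accessory subunit, was present in every sample. Before EGA it measured 88.6 and 16.7 CPM in MII, 53.2 and 79.6 CPM in 2C and 87.5 and 41.8 CPM in 4C samples. The 8C embryos had 76.7 and 22.1 CPM, and the later ones had 135 and 151 CPM (16C), 117 and 212 CPM (EM), 128 and 93.5 CPM (CM) and 151 and 191 CPM (BL). In CPM the 8 samples from 16C on exceeded all 8 samples up to 8C, but in deposited values they did not, since MII replicate 1 (184.6) exceeded 6 of them. This cut was chosen after the values were seen, and the share of all loci that separate at it was not counted. The 8C stage had the lowest mean on both scales, 49.4 ± 38.6 CPM.

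**Figure D1:**
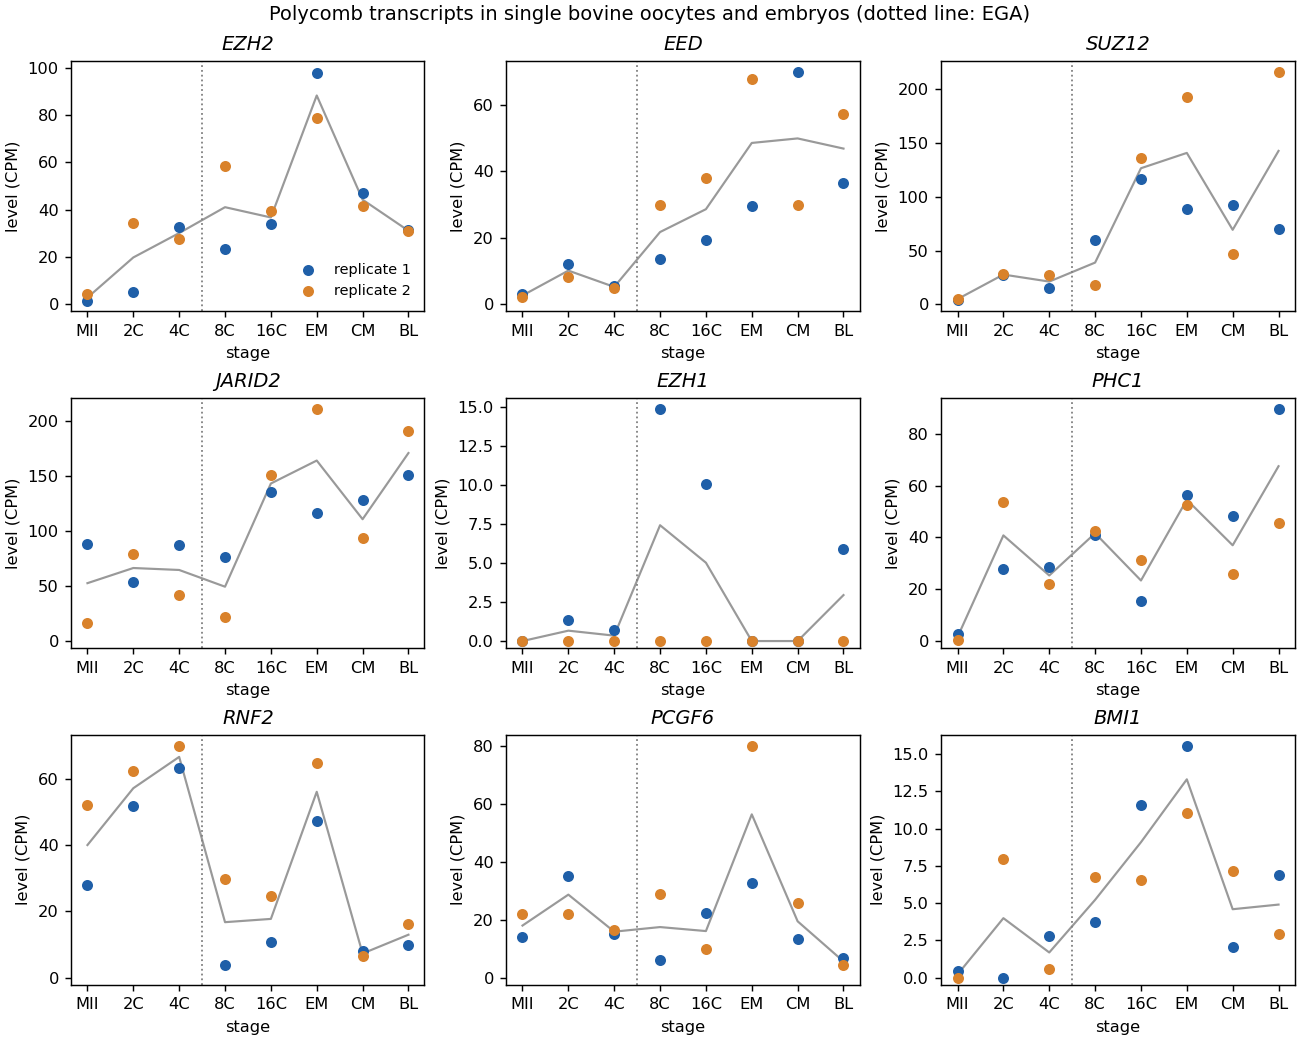
Level of each Polycomb transcript in CPM (vertical axis, linear, with its own range in each panel) at the 8 stages (horizontal axis). Points are single oocytes or embryos, coloured by replicate number, the grey line joins the stage means and the dotted line marks EGA. EED, SUZ12 and EZH2 were lowest in MII oocytes, RNF2 in CPM was high up to 4C and again in EM (in deposited values both EM samples lay below every earlier one), and EZH1 had reads in replicate 1 samples only.

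RNF2, the ubiquitin ligase of PRC1, was high from the oocyte to the 4-cell embryo and lower in most later samples. It stood at 27.9 and 52.1 CPM in MII, at 51.9 and 62.4 CPM in 2C and at 63.2 and 70.1 CPM in 4C samples. It then measured 3.71 and 29.8 CPM in 8C, 10.8 and 24.7 CPM in 16C, 47.4 and 64.8 CPM in EM, 8.20 and 6.42 CPM in CM and 9.82 and 16.1 CPM in BL samples. In CPM, 7 of the 10 later samples lay below all earlier ones, and the exceptions were both early morulae and 8C replicate 2. In deposited values all 10 did, at 5.40 to 45.7 against 58.2 to 126.6 before EGA, with the early morulae at 44.8 and 45.7. The highest stage mean, 66.6 ± 4.85 CPM, was that of 4C and the lowest, 7.31 ± 1.26 CPM, that of CM. In deposited values CM was again the lowest stage, whereas the highest mean was that of MII (92.4, against 88.3 in 4C). The 8C sample with the higher RNF2 value, replicate 2, was the one in which H1FOO remained. The same embryo also had more EED (29.8 against 13.6 CPM) and more EZH2 (58.7 against 23.5 CPM) than 8C replicate 1. It had less SUZ12 (18.3 against 59.4 CPM), so the members did not differ in a single direction between these embryos. A link to H1FOO was not tested.

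PCGF6, a PCGF protein of a variant PRC1, showed no ordered course. Before EGA it ranged from 14.2 to 35.3 CPM (median 19.3) and after it from 4.40 to 80.3 CPM (median 17.9). Its lowest stage was the blastocyst, with 6.88 and 4.40 CPM in the samples, and its highest mean was that of the early morulae, whose samples had 32.7 and 80.3 CPM. The groups before and after EGA overlapped, with 5 later samples below and 1 above all earlier ones.

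BMI1, the PCGF protein best known from canonical PRC1 in stem cells, was the least covered member after EZH1, with 122 reads in all. It had 1 and 0 reads in the MII oocytes (0.44 and 0 CPM), 0 and 7.99 CPM in 2C and 2.78 and 0.61 CPM in 4C embryos. After EGA it measured 3.71 and 6.73 CPM (8C), 11.6 and 6.58 CPM (16C), 15.5 and 11.1 CPM (EM), 2.05 and 7.14 CPM (CM) and 6.88 and 2.94 CPM (BL). Only 10 of the 16 samples reached 3 reads, of which 2 were earlier samples, and the groups overlapped through 2C replicate 2 and 4C replicate 1.

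PHC1, a polymerizing subunit of canonical PRC1, was low in the oocyte and present from the 2-cell stage. The MII oocytes had 2.66 and 0.44 CPM (6 reads and 1 read), the 2C embryos 28.0 and 53.6 CPM and the 4C embryos 28.5 and 22.1 CPM. Later samples had 40.8 and 42.3 CPM (8C), 15.5 and 31.3 CPM (16C), 56.4 and 52.6 CPM (EM), 48.2 and 25.7 CPM (CM) and 89.4 and 45.5 CPM (BL). The oocytes were below every embryo, and the cleavage stages overlapped with the later ones. Among the embryo stages, 8C lay below EM without overlap in CPM, but above it in the mean of deposited values (55.0 against 45.2).

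The stages were compared with limma, using log2(deposited value + 1), a scale that understates changes of genes with few reads, with Benjamini-Hochberg adjustment over all loci tested. Over the 8 stages, 5 of the 9 members differed, beside 66.7% of all 9670 loci tested, so a stage effect was not particular to these genes. They were PHC1 (limma, adjusted p = 0.0011), EED (0.0019), SUZ12 (0.003), RNF2 (0.0035) and EZH2 (0.019). PCGF6 (0.085), BMI1 (0.15), JARID2 (0.34) and EZH1 (0.55) did not pass. The call of EZH2 was lost without MII replicate 1 or EM replicate 1, with adjusted p of up to 0.14.

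The question of which transcripts were higher or lower after EGA was addressed by comparing the 10 later with the 6 earlier samples. Of the 9 members, 7 had enough reads to be tested, and the filter left out EZH1 and BMI1. Of the 7, 4 rose, beside 36.9% of all loci tested, and 1 fell, beside 29.9%. The median log2 change of the 7 was 1.33, against 0.23 over all loci tested. That overall median depends on the scaling, and was 0.65 with scaling to total reads and 0.09 with TMM factors.

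Of the 4 PRC2 members tested, EED, SUZ12 and EZH2 rose and JARID2 was not called. EED rose by 2.13 on the log2 scale (SE 0.36, limma, adjusted p = 2.7e-05), which is 4.39-fold, and SUZ12 by 2.06 (SE 0.44, adjusted p = 0.00035). EZH2 rose by 1.55 (SE 0.49, adjusted p = 0.0088), though not when tested by edgeR, where the change was 0.95 (adjusted p = 0.11). In CPM, EED was the 1 tested member whose later samples all lay above the earlier ones (18.4% of all loci tested), and none lay wholly below (9.70%). In deposited values EED again lay wholly above (16.0% of all loci) and RNF2 wholly below (14.1%).

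The PRC1 ligase moved the other way. RNF2 fell by 2.17 on the log2 scale (SE 0.45, limma, adjusted p = 0.00023), to a 4.48-fold lower level. The calls of EED, SUZ12 and RNF2 held in all 27 alternatives, including those without 8C replicate 2 and without both 8C samples. The number of members called was 5 in each of these fits too, with JARID2 called in place of PHC1.

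PHC1 rose by 1.33 (SE 0.58, limma, adjusted p = 0.047), but its call was lost in 16 of 27 alternatives. Leaving out a single MII oocyte was enough, with a change of 0.70 (adjusted p = 0.18) without MII replicate 2 and 1.03 (adjusted p = 0.13) without MII replicate 1.

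For 2 tested members no change was called. JARID2 differed by 0.58 (SE 0.41, 95% interval -0.28 to 1.44, limma, adjusted p = 0.22). It passed with scaling to total reads (1.05, adjusted p = 0.049), without 8C replicate 2 (0.82, adjusted p = 0.036) and without both 8C samples (0.87, adjusted p = 0.034). PCGF6 differed by -0.74 (SE 0.49, 95% interval -1.76 to 0.28, adjusted p = 0.19).

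The members left out by the filter were covered otherwise. BMI1 averaged 1.97 ± 3.12 CPM before (SD, n = 6) and 7.42 ± 4.23 CPM after EGA (SD, n = 10). In the fit with no filter its log2 change was 1.77 (SE 0.56, limma, adjusted p = 0.016). EZH1 averaged 0.34 ± 0.56 CPM before and 3.08 ± 5.39 CPM after EGA, a difference that was not detectable at this depth (two-sided exact permutation test over 8008 splits, p = 0.346).

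**Figure D2:**
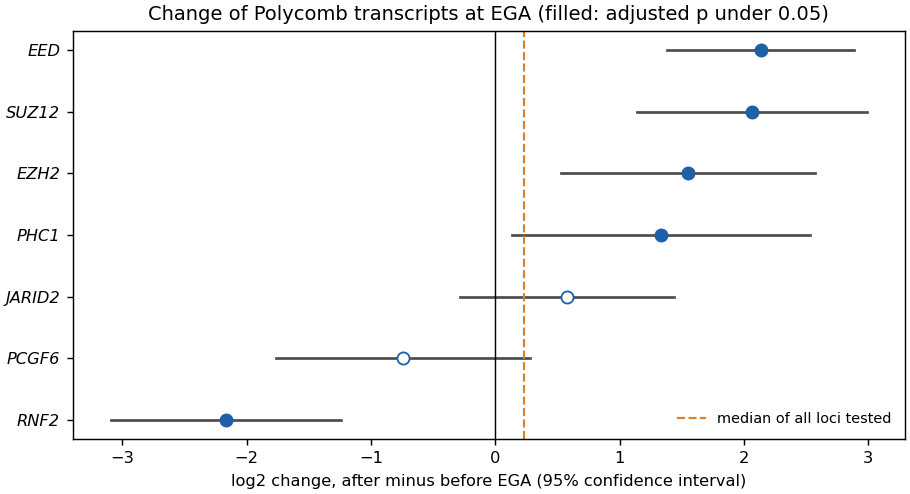
Log2 change of the 7 tested Polycomb transcripts, after minus before EGA (horizontal axis), with bars for the 95% confidence interval and filled points for an adjusted p under 0.05 by limma. EED, SUZ12, EZH2 and PHC1 lay above 0 and RNF2 below it, and the dashed line is the median of all loci tested, 0.23.

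Single steps were compared next to see when the changes occurred. Between MII oocytes and 4C embryos, PHC1 rose by 3.22 (SE 0.65, limma, adjusted p = 0.012) and EZH2 by 2.62 (SE 0.77, adjusted p = 0.048), so both were higher before EGA was reached. These were 2 of 9 members, beside 6.48% of all loci higher and 2.19% lower. These shares rest on 839 calls, which became 611 without MII replicate 1, 82 without MII replicate 2, and 62 and 39 without 4C replicate 1 and 2. Where a sample of a step was left out, its stage held 1 embryo, which was assumed to vary like the samples of the other stages. EZH2 lost its call when any 1 of the 4 samples was left out, and PHC1 when any but MII replicate 1 was. With 2 samples per stage the other members had wide intervals, such as -1.51 to 1.58 for RNF2.

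From 4C to 8C embryos, EED rose by 1.80 (SE 0.62, limma, adjusted p = 0.033) and RNF2 fell by 2.54 (SE 0.73, adjusted p = 0.014). SUZ12, PHC1 and EZH2, which were also called higher after EGA, were not called at this step. Their log2 changes were 0.67 (SE 0.70, limma, adjusted p = 0.47), 0.70 (SE 0.65, adjusted p = 0.42) and 0.29 (SE 0.77, adjusted p = 0.79). Among all loci, 17.7% rose and 19.1% fell from 4C to 8C. Neither call held without 4C replicate 1 or without 4C replicate 2, although the log2 changes remained 1.88 and 1.72 for EED and -2.61 and -2.47 for RNF2. Without 8C replicate 1, the sample with 3 reads of RNF2, the fall of RNF2 was 1.29 on the log2 scale (adjusted p = 0.18) and EED remained called. Without 8C replicate 2 the rise of EED was 1.39 (adjusted p = 0.15) and RNF2 remained called.

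From 8C embryos to blastocysts no member was called by limma, edgeR or DESeq2, beside 6.44% of all loci higher and 3.63% lower by limma. At an unadjusted p under 0.05 there were 2, JARID2 with 1.70 (SE 0.74, adjusted p = 0.17) and SUZ12 with 1.55 (SE 0.70, adjusted p = 0.18). Without 8C replicate 1 both were called, with 2.72 and 2.52 (adjusted p = 0.036 for each).

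The reads of EZH2 and RNF2 were also compared within each sample, where scaling cancels. The log2 ratio of EZH2 to RNF2 reads (0.5 added to each) was chosen after the values were seen and is given as a description. It lay between -4.18 and -0.86 before EGA (median -2.27) and between 0.28 and 2.62 after it (median 1.33). The ratio was thus higher in all 10 later samples, both early morulae included, than in any of the 6 earlier ones. Only its change between samples can be read, since reads were not divided by transcript length. In CM the stage mean of the ratio was highest, with samples at 2.45 and 2.62 (8C replicate 1 was at 2.48), and in MII oocytes it was lowest, at -4.18 and -3.51.

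The ratio of the PCGF partners overlapped between the periods. The log2 ratio of BMI1 to PCGF6 reads ranged from -6.74 to -1.46 before EGA (median -4.32) and from -2.83 to 0 after it (median -0.99). BMI1 had 0 or 1 read in 4 of the 6 earlier samples, so their ratios are set largely by the 0.5 added. For EZH2 to EZH1 the ratio overlapped widely, with medians of 4.69 before and 6.08 after EGA, and rested on the few reads of EZH1.

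**Figure D3:**
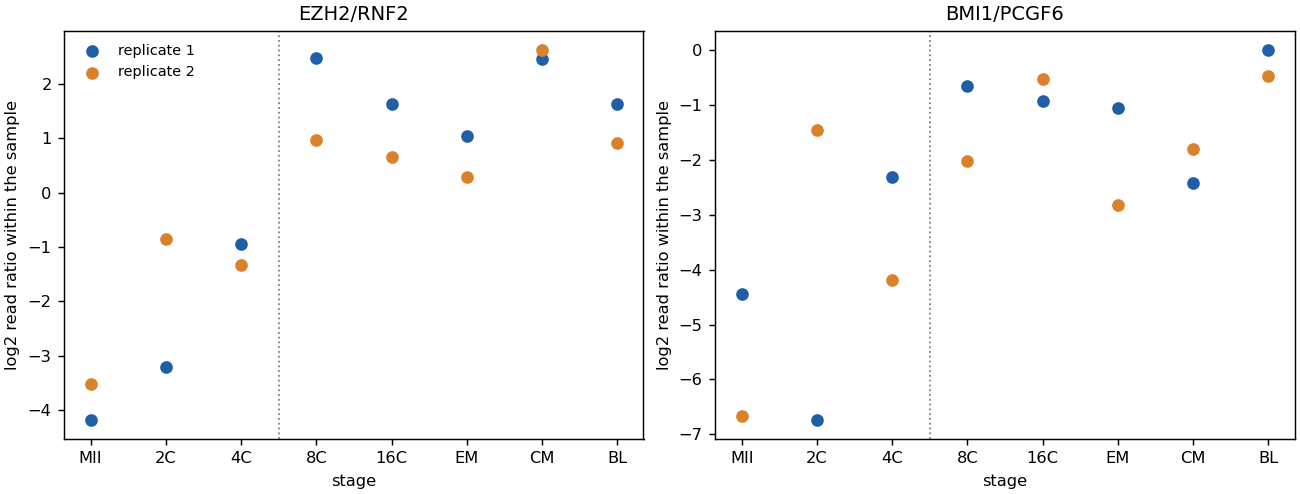
Log2 ratio of reads within each sample (vertical axis, 0.5 added to both counts) at the 8 stages (horizontal axis), for EZH2 over RNF2 (left) and BMI1 over PCGF6 (right). Points are single oocytes or embryos and the dotted line marks EGA. The EZH2 to RNF2 ratio was higher in all 10 samples after EGA than in all 6 before it, whereas BMI1 to PCGF6 overlapped. The height of 0 depends on transcript lengths, which were not used.

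Across the 16 samples the levels of EED and SUZ12 were the most alike of all member pairs (Pearson's r = 0.79 of log2 levels), followed by EZH2 and BMI1 (r = 0.77). The most opposed were EED and RNF2 (r = -0.73) and SUZ12 and RNF2 (r = -0.63), and for EZH2 and RNF2 r was -0.34. Such values are descriptions, since all genes share the same libraries and the same stage differences.

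Among 5735 named loci with a mean of at least 10 CPM, the gene most like EED was VEZT (r = 0.96), and the one most like SUZ12 was DHRS7 (r = 0.91). PSMA6, a proteasome subunit, was most like EZH2 (r = 0.96), and USP31 was most like RNF2 (r = 0.94). For the other members these were MAP2K4 for PHC1 (r = 0.93), SRP54 for BMI1 (r = 0.91), SKA3 for PCGF6 (r = 0.87) and SLC3A1 for JARID2 (r = 0.84). EZH1 had no gene above r = 0.71.

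The further Polycomb genes were taken from lists of partners. PRC2 partners change where and how strongly the core works. Of 9 listed, 7 were found and 3 could be tested at EGA. AEBP2, which stimulates PRC2, rose by 1.95 (SE 0.55, limma, adjusted p = 0.0039), from 3.38 ± 4.45 to 14.9 ± 8.21 CPM. MTF2, which binds DNA for another form of the complex, fell by 1.82 (SE 0.35, adjusted p = 0.00011), from 80.7 ± 19.3 to 34.5 ± 19.4 CPM. RBBP4, the histone-binding subunit, was present in every sample and differed by -0.48 (SE 0.36, adjusted p = 0.25).

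Of the other canonical PRC1 genes, none passed the filter on reads across samples. All 10 listed were found and 9 had reads. Over all 16 samples CBX6 had 1 read, CBX7 had 9 and CBX8 had 39, and CBX2 was listed at 0. PCGF2, the closest relative of BMI1, had 39 reads, and PHC2 had 73. PHC3 had 242 reads and SCML2 had 212. SCML2, named after its values were seen, lay at 5.32 to 28.4 CPM before and at 0 to 4.43 CPM after EGA without overlap. Such a lower range was seen for 9.70% of all loci tested in CPM and 14.1% in deposited values, though SCML2 was not among those tested. The sum of the list ranged from 14.6 to 63.2 CPM before and from 8.23 to 38.2 CPM after EGA.

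Variant PRC1 genes were better covered. All 18 listed were found and 10 were tested, of which 3 rose and 5 fell, beside 36.9% and 29.9% of all loci tested. KDM2B, which recruits a variant complex to CpG islands, rose by 3.08 (SE 0.54, limma, adjusted p = 4.1e-05), from 3.41 ± 4.83 to 35.5 ± 23.8 CPM. Of the DNA-binding factors of the PCGF6 complex, E2F6 rose by 2.53 (SE 0.55, adjusted p = 0.00037) and MGA by 2.40 (SE 0.57, adjusted p = 0.00097). MAX, the partner of MGA, differed by 0.60 (SE 0.42, adjusted p = 0.21), and TFDP1 was not tested.

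AUTS2 and PCGF5, which belong to the same variant complex, both fell. The log2 change of AUTS2 was -4.04 (SE 0.44, limma, adjusted p = 8.8e-08) and that of PCGF5 was -4.01 (SE 0.50, adjusted p = 4.7e-07). Their earlier and later samples did not overlap, at 191 to 448 against 6.88 to 65.7 CPM for AUTS2 and 12.0 to 34.6 against 0 to 4.09 CPM for PCGF5. In CPM such a lower range was seen for 9.70% of all loci tested, and both genes kept it in deposited values. YAF2 fell by 3.30 (SE 0.44, adjusted p = 1.3e-06), from 35.2 ± 10.7 to 4.68 ± 2.84 CPM. Its paralogue RYBP was at 62.9 ± 34.0 and 73.5 ± 33.5 CPM and differed by -0.24 on the log2 deposited scale (SE 0.40, adjusted p = 0.6), so the sign of this difference, which did not pass, turned with the scale.

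Genes of the machinery that removes the Polycomb marks were also examined. BAP1, the enzyme of PR-DUB, had no usable value, since its row lies in the stretch without reads described below. In the PR-DUB complex, which removes ubiquitin from H2A, 9 of 10 listed genes were found and 5 tested, of which 2 rose, beside 36.9% of all loci, and none fell. ASXL1 rose by 3.22 (SE 0.50, limma, adjusted p = 8.8e-06), from 0.53 ± 0.78 to 15.1 ± 12.2 CPM, and OGT by 1.45 (SE 0.36, adjusted p = 0.0013). KDM6A, a demethylase of the PRC2 mark, rose by 2.76 (SE 0.54, adjusted p = 0.00014), with samples at 0 to 2.66 CPM before and 2.95 to 44.4 CPM after EGA, ranges that overlapped in deposited values. KDM6B had too few reads for the test.

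The genes RBBP7, BCOR, WDR5, CBX3 and BAP1 sit in an uninterrupted stretch of 2578 table rows with no read in any sample, so their zeros carry no information on expression.

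**Figure D4:**
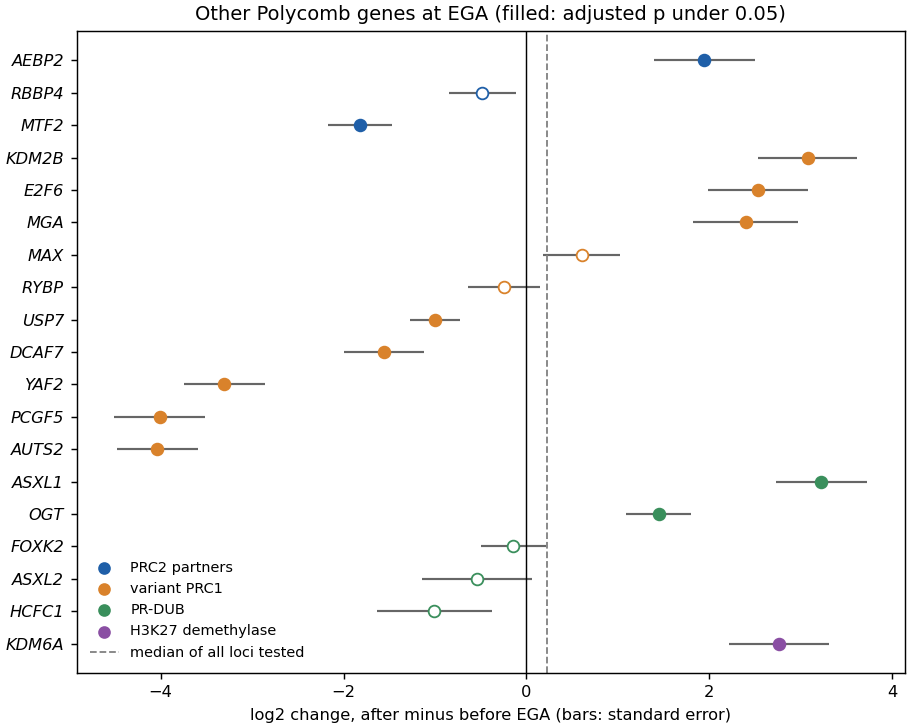
Log2 change of the other tested Polycomb genes, after minus before EGA (horizontal axis), with bars for the standard error, colours for the gene list and filled points for an adjusted p under 0.05 by limma. Values ran from AUTS2 (variant PRC1) at -4.04 to ASXL1 (PR-DUB) at 3.22, and the dashed line is the median of all loci tested, 0.23.

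HOX genes, the classic targets of Polycomb silencing, were mostly near the limit of detection. Of 39 listed, 34 were found, 24 had at least 1 read, and 1 could be tested. HOXD8 fell by 1.43 at EGA (SE 0.55, limma, adjusted p = 0.028), from 18.1 ± 6.96 to 12.0 ± 11.4 CPM, a call lost in 5 of 27 alternatives. The summed level of the list was 31.1 to 63.9 CPM before and 8.66 to 105.6 CPM after EGA, and these ranges overlapped.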

How the data were processed

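Reads of 16 single oocytes and embryos were processed by the authors. Per the labels, the tools were cutadapt, FastQC, TopHat, Cufflinks and HTSeq, and the genome build is not given in the sources used here, so no coordinates are printed. The deposited signal is a read count per locus divided by a size factor per sample. Within a sample, 100% of the values above 0 were a whole number of times 1 step (tolerance 0.01 reads), and division by the step gave the reads. CPM was computed from them.

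Members and lists were chosen with earlier results of these data known. limma 3.58.1 (R 4.3.3; empirical Bayes, trend) was run on log2(deposited value + 1) after filterByExpr, leaving 9670 loci for the 8 stages and 6910 for EGA, with Benjamini-Hochberg adjustment at 0.05. Named partners were at most 3 rises and 3 falls per list. Likeness is Pearson's r of log2 levels, with loci of unnamed transcripts left out. Alternatives were edgeR 4.0.16 and DESeq2 1.42.0 on recovered reads, TMM and total-read scaling, pseudocounts of 0.5 and 5, no filter, a replicate block, summed loci, single samples left out, the compared stages alone and a contrast of stage means. The fit without both 8C samples, the EZH2 to RNF2 ratio and sample overlap in deposited values were added after seeing the data. The tests were checked on simulated data.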

Additional observations from a re-analysis of the deposited data

Results flagged for a closer look

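Samples far from the rest of their group were looked for in each member before EGA (6 samples) and after it (10 samples), 18 groups in all, with Dixon's test at 95%. By chance alone this test picks about 1 group in 20 where values are normally distributed within a single population. These groups pool several stages, so that rate need not hold and a pick can be a stage difference. The test picked 2. BMI1 in 2C replicate 2 was at 7.99 CPM, and the next of the 6 earlier samples was at 2.78 CPM (ratio of gap to range 0.652, critical value 0.625). PCGF6 in EM replicate 2 was at 80.3 CPM, and the next of the 10 later samples was at 32.7 CPM (ratio 0.627, critical value 0.466). The BMI1 value rests on 27 reads and the PCGF6 value on 145. In deposited values the ratio was 0.626 for BMI1 and 0.429 for PCGF6, the latter below its critical value, and the lowest later sample of JARID2, 8C replicate 2 (26.4), passed narrowly (ratio 0.469).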

How the results depend on the processing

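The stage effect was called for 4 to 6 members when single samples were left out, and at EGA 4 to 5 were called (5 in each main result), against 3 at EGA with edgeR, 6 with total-read scaling and 6 with the contrast of stage means. EED and SUZ12 rose and RNF2 fell at EGA in every alternative run. The single steps, with 2 samples per stage, were less stable. From MII to 4C (2 calls) 1 was made with no filter, 1 with edgeR and 1 with the 2 stages alone, and 0 to 1 when a sample was left out. From 4C to 8C (2 calls) 1 was made with total-read scaling (RNF2), 1 with edgeR (EED), 0 with the 2 stages alone and 0 to 2 when a sample was left out, where the 2 without 8C replicate 2 were RNF2 and EZH1. Left-out 4C embryos gave 0 each and 8C replicate 1 gave 1. From 8C to BL (0 calls) the range was 0 to 2, with 2 without 8C replicate 1. The cause was not tested. A stage with a sample left out held 1 embryo, assumed to vary like the other stages. Of 834 values for single genes, levels and ratios under an alternative, 780 kept their direction and side of the threshold. A call was lost in 44 and gained in 8, and no direction was reversed among the 834. At single steps these values held only the called members, and JARID2 and SUZ12 from 8C to BL. Outside the members they held only partners and a HOX gene that were called at EGA. Other changes, such as that of RYBP, were not counted, so reversals among them were not assessed. The levels of EZH2 in EM (88.3 CPM) and RNF2 in 4C (66.6 CPM) became 74.1 and 88.3 on the deposited scale, where MII (92.4) was the highest stage of RNF2.

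Among all loci, calls at EGA went from 4619 to 7075 with no filter. With edgeR, calls from MII to 4C went from 839 to 398 and from 8C to BL from 974 to 339, where the 2 stages alone gave 165. From 4C to 8C, the 2 stages alone gave 1952 against 3560, and leaving out a 4C embryo gave 2003 (replicate 1) and 1935 (replicate 2). Single samples left out gave 39 to 611 calls from MII to 4C, and from 8C to BL 1600 and 662 without 8C replicate 1 and 2, and 584 and 238 without BL replicate 1 and 2. Total-read scaling moved the split of higher and lower calls from 627 and 212 to 1039 and 62 from MII to 4C, and from 623 and 351 to 819 and 285 from 8C to BL, and at EGA from 2550 and 2069 to 2868 and 1596. For edgeR the split from 8C to BL was 141 and 198, and from 4C to 8C 1656 and 1083 against 1711 and 1849.

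With the replicate number as a block, 5 members had a stage effect, 4 changed at EGA (PHC1 lost, adjusted p = 0.052 by limma), 2 from MII to 4C, 2 from 4C to 8C and 0 from 8C to BL. Samples with the same number are different embryos, and their deviations from the stage means correlated at -0.26 to 0.13 (median 0.00397 over 28 stage pairs, 1 of them over 0.1), so the numbers do not pair them. For EZH1, BMI1 and the canonical CBX genes, low expression and too little depth cannot be told apart: EZH1 reached 3 reads in 3 samples and BMI1 in 10, with at most 13 and 27 reads.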
